A study of Mus musculus with 6 samples.

Results

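The transcripts described here are those of 37 mouse genes that copy DNA in S phase or supply its nucleotides. They were listed by name, and 36 of them had a probe set annotated to that gene alone, out of 18193 genes measured this way; where a gene had several such probe sets, the one brightest on average across the 6 arrays stood for it. Chaf1a was the unmeasured one. Total RNA of isolated C57BL/6J heart cells was hybridised to 6 Affymetrix arrays in 3 groups of 2. Neonatal cardiomyocytes and neonatal cardiac fibroblasts came from mice of both sexes at postnatal day 1, parted by density on Percoll. Adult cardiomyocytes came from male mice at 8 weeks and were isolated by Langendorff perfusion of the heart, so that age, sex and isolation differ together. All groups were untreated wild-type cells as far as the labels say. The labels call the cells fresh, and also describe expansion on a culture dish to part fibroblasts from cardiomyocytes; plating was of a length not given in the sources used here. Separate litters or preparations are not stated for the 2 arrays of a group; a p-value here covers array-to-array spread alone, and that spread may be technical.

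Before a cell can copy its genome, the origin recognition complex (Orc1 to Orc6), Cdc6 and Cdt1 load the ring-shaped Mcm2 to Mcm7 helicase on origins, a step called licensing. Cdc45 and the GINS complex then switch the helicase on, and primase, the replicative polymerases, the Pcna sliding clamp and ligase build the new strands. Ribonucleotide reductase, thymidylate synthase, thymidine kinase and dUTPase supply the deoxynucleotides. Many of these genes are known targets of the E2F transcription factors, which act at the passage from G1 into S phase. Rodent cardiomyocytes are known to divide until shortly after birth and then to leave the cell cycle, after a last round of DNA synthesis that leaves many of them with more than one nucleus.

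Because E2F factors recognise a TTT arm followed by a CG-rich core, the octamer TTTNNCGC was searched on both strands in the RefSeq promoters (build GRCm38.p6; 250 bases before to 50 after an annotated start). Promoters of 31 of the 37 genes were in the table, and 12 genes (38.7%) held a match, against 5.93% of all 27025 genes in the table. The median GC content was 61.3% for the genes' 35 promoters and 52.7% for all promoters, and its part in that share was not tested. The stretches below are the 180 bases before the start, 5′ to 3′ on the gene's strand, with matches in capitals; overlapping matches run together. Where a gene had several promoters in the table, the one with the most matches is printed. Mcm7 had 2, with 2 matches in the whole window of the printed one and 0 in the other. The first 3 stretches are of helicase subunits that fell in adult cells. Cdc6 and Orc1 are loading factors of which only the first was lower on the adult arrays.
Mcm5 (chr8:75109329-75109508, plus strand): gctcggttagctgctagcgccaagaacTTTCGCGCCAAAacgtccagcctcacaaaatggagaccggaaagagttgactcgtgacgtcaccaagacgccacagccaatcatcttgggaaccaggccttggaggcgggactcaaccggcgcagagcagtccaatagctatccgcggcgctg
Mcm6 (chr1:128359706-128359885, minus strand): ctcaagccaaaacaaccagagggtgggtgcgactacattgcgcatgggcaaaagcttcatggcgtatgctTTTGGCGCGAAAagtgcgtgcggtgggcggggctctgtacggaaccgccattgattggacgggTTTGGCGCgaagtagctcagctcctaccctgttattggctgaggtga
Mcm7 (chr5:138171884-138172063, minus strand): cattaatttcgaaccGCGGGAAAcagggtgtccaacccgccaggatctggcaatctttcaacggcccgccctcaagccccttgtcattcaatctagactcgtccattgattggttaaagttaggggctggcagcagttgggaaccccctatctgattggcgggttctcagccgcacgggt
Cdc6 (chr11:98907971-98908150, plus strand): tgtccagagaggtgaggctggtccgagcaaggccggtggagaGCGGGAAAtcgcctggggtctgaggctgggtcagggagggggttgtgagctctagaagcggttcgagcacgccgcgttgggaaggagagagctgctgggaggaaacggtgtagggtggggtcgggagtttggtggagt
Orc1 (chr4:108579274-108579453, plus strand): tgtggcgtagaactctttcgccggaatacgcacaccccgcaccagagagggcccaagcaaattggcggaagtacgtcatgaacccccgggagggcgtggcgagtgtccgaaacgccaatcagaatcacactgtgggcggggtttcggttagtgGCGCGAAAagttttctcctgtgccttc
The next 3 hold no match in the whole window: the reductase subunit Rrm2, which had the largest fall of all members, the clamp Pcna, and E2f1 itself. Each had 1 annotated start in the table, and whether it is the gene's main start was not tested. Bases outside the window were not searched, so matches elsewhere at these genes would be missed.
Rrm2 (chr12:24708074-24708253, plus strand): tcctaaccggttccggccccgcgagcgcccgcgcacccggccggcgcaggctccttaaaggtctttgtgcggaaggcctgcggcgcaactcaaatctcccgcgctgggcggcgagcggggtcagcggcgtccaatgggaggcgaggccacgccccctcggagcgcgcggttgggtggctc
Pcna (chr2:132253181-132253360, minus strand): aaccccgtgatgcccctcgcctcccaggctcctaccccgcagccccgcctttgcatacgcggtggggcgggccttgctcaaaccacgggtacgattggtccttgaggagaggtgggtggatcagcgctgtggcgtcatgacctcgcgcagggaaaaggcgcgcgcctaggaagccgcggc
E2f1 (chr2:154569427-154569606, minus strand): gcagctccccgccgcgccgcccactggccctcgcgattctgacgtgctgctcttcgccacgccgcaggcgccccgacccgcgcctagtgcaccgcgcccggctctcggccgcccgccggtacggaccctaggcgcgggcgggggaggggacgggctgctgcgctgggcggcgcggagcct
Mcm5 held 2 overlapping matches, and Mcm6 held 2 overlapping ones and another further downstream. Matches lay on either side of the start: those of Cdt1, Lig1, Mcm3, Pold1 and Tyms were all within the 50 bases after it. Of the 8 genes called lower in adult than in neonatal cardiomyocytes below, 5 held a match, and of the 22 measured genes with a promoter that were not called, 7 did. A match is a description of letters and not of binding.

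**Figure D1:**
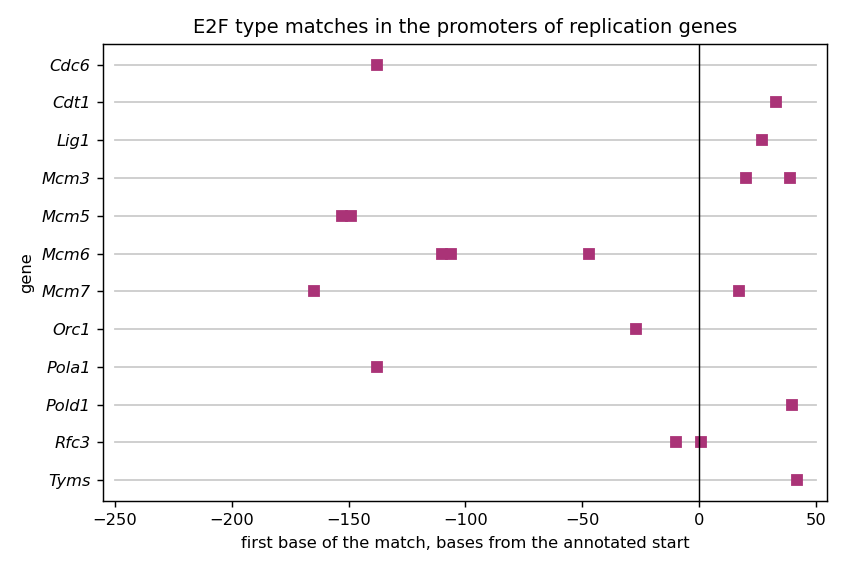
Position of each TTTNNCGC match (either strand) in the promoters of the 12 genes that hold one; the x axis gives the first base of the match in bases from the annotated start, the grey lines the searched window, and several promoters of a gene share a line. Mcm6 holds 3 matches, all before the start.

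Other motifs were searched in the same windows. The GC box GGGCGG was present in 23 of the 31 genes (74.2%, against 38.2% of all genes in the table) and the CCAAT box in 17 (54.8% against 41.1%). The letters TTTGAA, the core of the CHR element of many mitotic genes, were in 3 (9.68% against 20.2%).

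The arrays were checked against markers of heart cell types. The median of 6 cardiomyocyte markers was 13.85 and 13.54 in neonatal cardiomyocytes (replicates 1 and 2), 7.15 and 10.78 in fibroblasts and 13.99 and 13.98 in adult cells, in log2 RMA values as everywhere below. The median of 7 fibroblast markers was 11.07 and 10.65, 13.09 and 12.15, and 8.06 and 9.99, that of 6 leukocyte markers 7.34 and 5.25, 11.79 and 9.39, and 6.55 and 7.96, and that of 5 endothelial markers 8.88 and 7.43, 5.57 and 6.60, and 8.22 and 9.48. Every group therefore holds transcripts of other cell types. For replicate 1 of both neonatal groups the title names the opposite cell type from the source name, and grouping follows the source name. The markers of these arrays go with the source name. Cardiomyocyte medians were 13.85 in cardiomyocyte and 7.15 in fibroblast replicate 1, and fibroblast medians 11.07 and 13.09. By these markers, grouping by title puts unlike arrays together. Markers of 2 other cell types were low on the adult arrays together with the replication genes. All 4 epicardial markers lay below every neonatal array there, with medians of 5.40 and 6.43 in adult cells against 8.30 and 7.91 in neonatal cardiomyocytes and 10.19 and 8.32 in fibroblasts, and the epicardial gene Tbx18 fell (−3.29, adjusted p = 0.0425 in limma with Benjamini-Hochberg adjustment). Of the 7 fibroblast markers 4 lay below every neonatal array (Col1a1, Col1a2, Col3a1 and Postn), while Pdgfra and Tcf21 overlapped and Dcn had a higher mean in adult than in neonatal cardiomyocytes, by 0.74. Of 5 smooth muscle and pericyte markers Acta2 also lay below every neonatal array on the adult ones, Myh11 and Rgs5 lay above, and Cspg4 and Pdgfrb overlapped. The part of these cells in the results was not tested. In bulk RNA, fewer cycling cells and less replication mRNA per cell cannot be told apart, nor which cells of a preparation carried the transcripts.

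Most replication genes read lower on both adult arrays than on any neonatal one. Of the 36 genes, 35 had a lower mean in adult than in neonatal cardiomyocytes, with a median log2 difference of −1.50 against 0.09 over all 18193 genes. In 30 of them both adult arrays lay below all 4 neonatal arrays, which held for 18.5% of all genes. The 6 others were Orc1, the primase-associated subunit Pola2, the single-strand binding subunit Rpa2, the dUTPase Dut, E2f1 and the cyclin Ccne1. In 32 of 36 both adult arrays lay below both neonatal cardiomyocyte arrays (23.8% of all genes). The median of the 36 genes was 7.78 and 8.01 in neonatal cardiomyocytes, 7.97 and 8.52 in fibroblasts, and 6.38 and 6.41 in adult cardiomyocytes. The fibroblast replicate 2 array had the highest value of the 6 arrays for 31 of 36 genes (17.2% of all genes), and an adult array the lowest for 34 (32.7% of all genes).

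**Figure D2:**
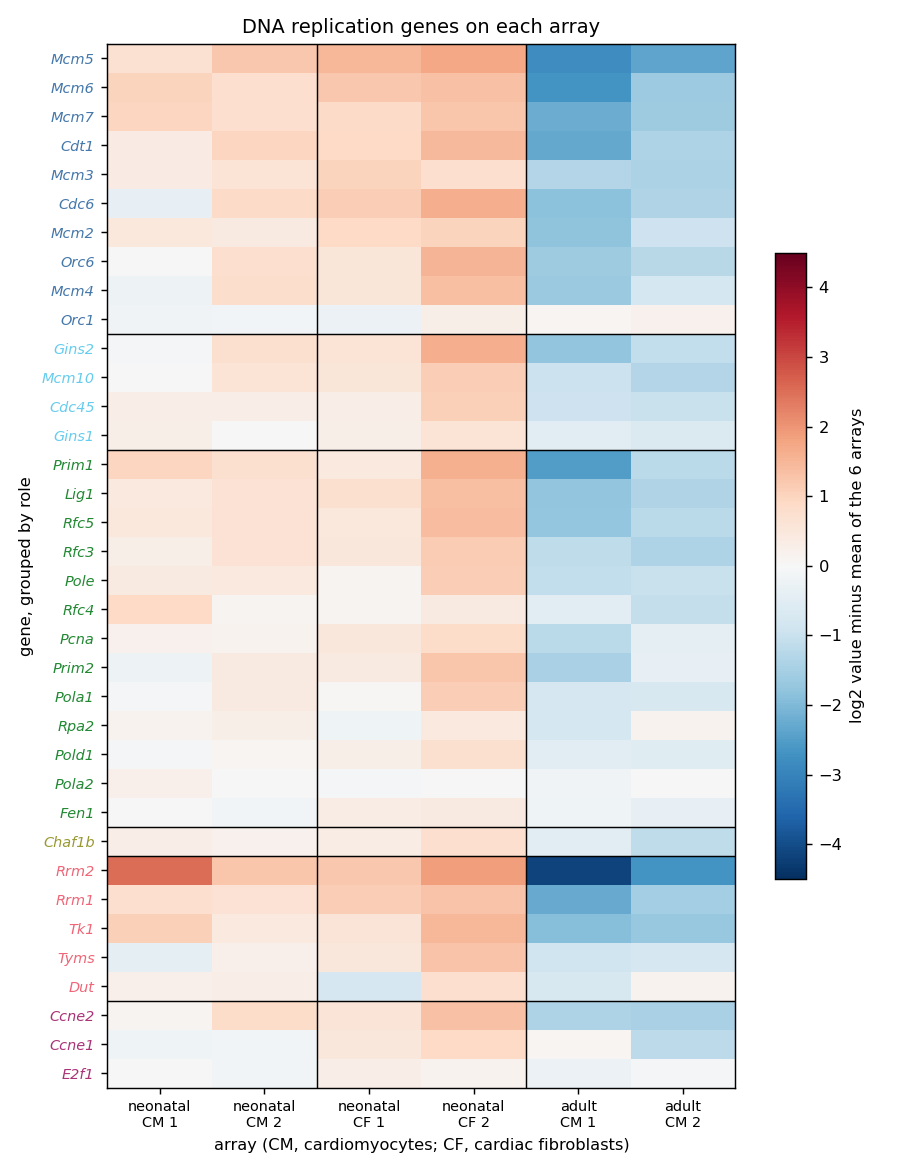
Each cell gives a gene's log2 value on an array minus its mean over the 6 arrays (colour bar), with genes in rows grouped by role (label colours and black lines) and arrays in columns. The adult columns are blue for nearly all rows, most for Rrm2 and Mcm5, while Orc1, Pola2, Fen1 and E2f1 stay pale throughout, and fibroblast replicate 2 is the reddest column.

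In limma, with Benjamini-Hochberg adjustment over all genes, 8 of the 36 genes fell from neonatal to adult cardiomyocytes and 0 rose, against 1.22% of all genes lower and 1.08% higher; at unadjusted p under 0.05, 25 were lower, against 11.7% of all genes. The 8 were Mcm3, Mcm5, Mcm6, Mcm7, Lig1, Rrm1, Rrm2 and Tk1. With the replicate number as a block the count was 13. It was 3 when the titles set the groups and 0 when both arrays with opposed titles were left out. The calls rest on few arrays: the count was 0 without neonatal cardiomyocyte replicate 2 or without either adult array, and 1 without neonatal cardiomyocyte replicate 1, without either fibroblast array or with only the arrays of the groups compared. The median log2 difference of the 36 genes lay between −1.79 and −1.30 in each of these fits. Over all genes, calls were mostly or wholly lost in the fits without arrays. They dropped to 74 lower and 40 higher of 18193 by title, and to 95 and 69 with only the groups compared. With the replicate block they rose, from 222 to 373 lower and from 196 to 234 higher. Against neonatal fibroblasts 26 of the 36 genes fell in adult cardiomyocytes and 0 rose, with a median difference of −2.04; over all genes 11.0% were lower and 10.1% higher. That count was 4 with groups by title, 4 without the arrays of opposed title, 0 without adult replicate 1, 5 without adult replicate 2 and 14 without fibroblast replicate 2. Over all genes the calls dropped as well, to 97 lower and 40 higher of 18193 by title, and also in each of these fits without arrays. Both comparisons use the same adult arrays.

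**Figure D3:**
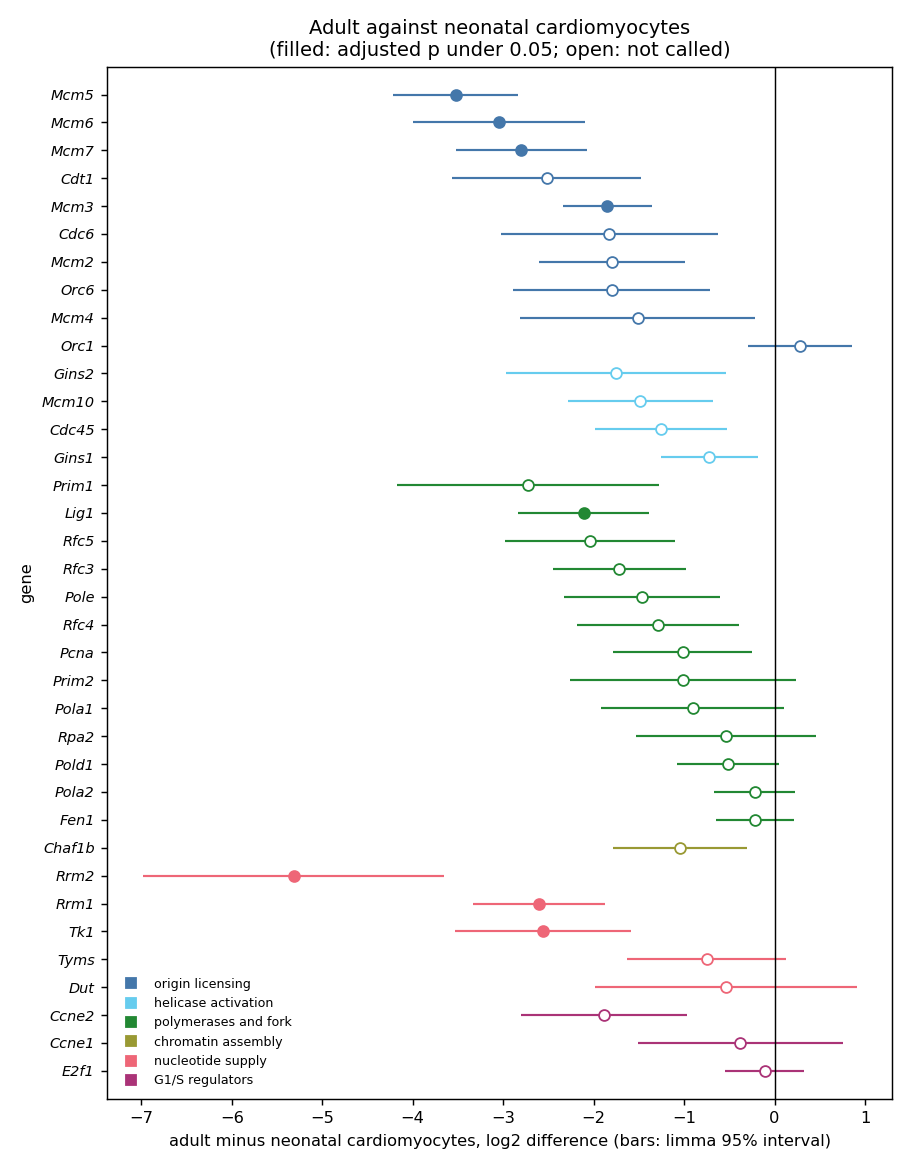
Log2 difference of adult minus neonatal cardiomyocytes for each of the 36 genes (x axis; bars, limma 95% interval), coloured by role, with filled symbols for adjusted p under 0.05. Filled symbols occur among origin licensing, fork and nucleotide genes, and only Orc1 lies to the right of zero.

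Of the 10 licensing genes 9 had lower means in adult than in neonatal cardiomyocytes, 4 of them called, with a median of −1.84. Mcm5, a subunit of the helicase ring, measured 8.96 and 9.48 in neonatal cardiomyocytes, 9.74 and 10.01 in fibroblasts, and 5.48 and 5.90 in adult cells. The adult arrays were far below all others, and the fall of 11.5-fold (log2 difference −3.52 ± 0.27 SE, adjusted p = 0.0193) was the largest among these 10 genes. Against fibroblasts it was 18.2-fold (adjusted p = 0.00418). The other Mcm5 probe sets differed by −2.66 and −0.10 between the cardiomyocyte groups, and the other Mcm6 sets by −4.01 and −0.05. The rank of Mcm5 therefore depended on the probe set used. Mcm6 measured 10.08 and 9.84 in neonatal cardiomyocytes, 10.29 and 10.38 in fibroblasts, and 6.39 and 7.45 in adult cells, 8.25-fold lower in adult than in neonatal cardiomyocytes (adjusted p = 0.0332). Mcm7 measured 10.70 and 10.49, 10.58 and 10.96, and 7.48 and 8.11, a fall of 6.96-fold (adjusted p = 0.0256). Neonatal values of both were close across the cell types and lay more than 2 log2 units above the adult ones. Mcm3 measured 8.08 and 8.31, 8.72 and 8.45, and 6.41 and 6.29, with a fall of 3.60-fold (adjusted p = 0.0269); 4 of its 5 probe sets had lower adult means.

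The other subunits of the ring were lower without being called. Mcm2 differed by −1.80 ± 0.32 (SE, adjusted p = 0.0632) and Mcm4 by −1.51 ± 0.51 (adjusted p = 0.176), and in both the adult arrays lay below all neonatal arrays. Mcm4 varied within each group, from 8.86 to 9.85 in neonatal cardiomyocytes and from 7.40 to 8.29 in adult ones. The loader Cdt1, which is destroyed once S phase starts, measured 8.71 and 9.31 in neonatal cardiomyocytes, 9.22 and 9.79 in fibroblasts, and 6.04 and 6.93 in adult cells, a difference of −2.52 ± 0.41 (SE, adjusted p = 0.0554). Cdc6, the ATPase that works with it, differed by −1.83 (adjusted p = 0.118) and the origin recognition subunit Orc6 by −1.80 (adjusted p = 0.101). Against fibroblasts all of Mcm2, Mcm4, Cdt1, Cdc6 and Orc6 fell, by 4.93-, 4.54-, 8.10-, 7.77- and 5.49-fold.

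Orc1, the largest origin recognition subunit, was the exception. It measured 6.11 and 6.15 in neonatal cardiomyocytes, 6.01 and 6.53 in fibroblasts, and 6.37 and 6.45 in adult cells, a difference of 0.28 with a 95% interval from −0.30 to 0.86. Its adult arrays lay within the range of the fibroblast arrays. The other Orc1 probe set, with the lower mean, differed by −0.57, and the mean of both by −0.14.

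All 4 genes of helicase activation were lower in adult cells, with adult arrays below all neonatal arrays, but 0 were called against neonatal cardiomyocytes (4 at unadjusted p under 0.05 in limma). Against fibroblasts all 4 fell. Gins2, a GINS subunit, measured 7.27 and 8.07 in neonatal cardiomyocytes, 7.98 and 8.99 in fibroblasts, and 5.58 and 6.26 in adult cells, −1.75 ± 0.48 (SE, adjusted p = 0.128) against neonatal cardiomyocytes. Gins1, another subunit of the complex, had the smallest difference of these, −0.72, from 7.32 and 7.07, 7.32 and 7.67, and 6.54 and 6.41. Mcm10, an initiation factor, differed by −1.48 and Cdc45 by −1.26. Cdc45 was listed at the same value, 6.79, on both neonatal cardiomyocyte arrays and fibroblast replicate 1, identical in every deposited decimal. Such ties joined between 0.905% and 1.36% of probe sets for any pair of arrays and occurred in 5 of the 36 genes. In Cdc45 alone they joined the arrays of 1 group, whose SD is then 0.

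**Figure D4:**
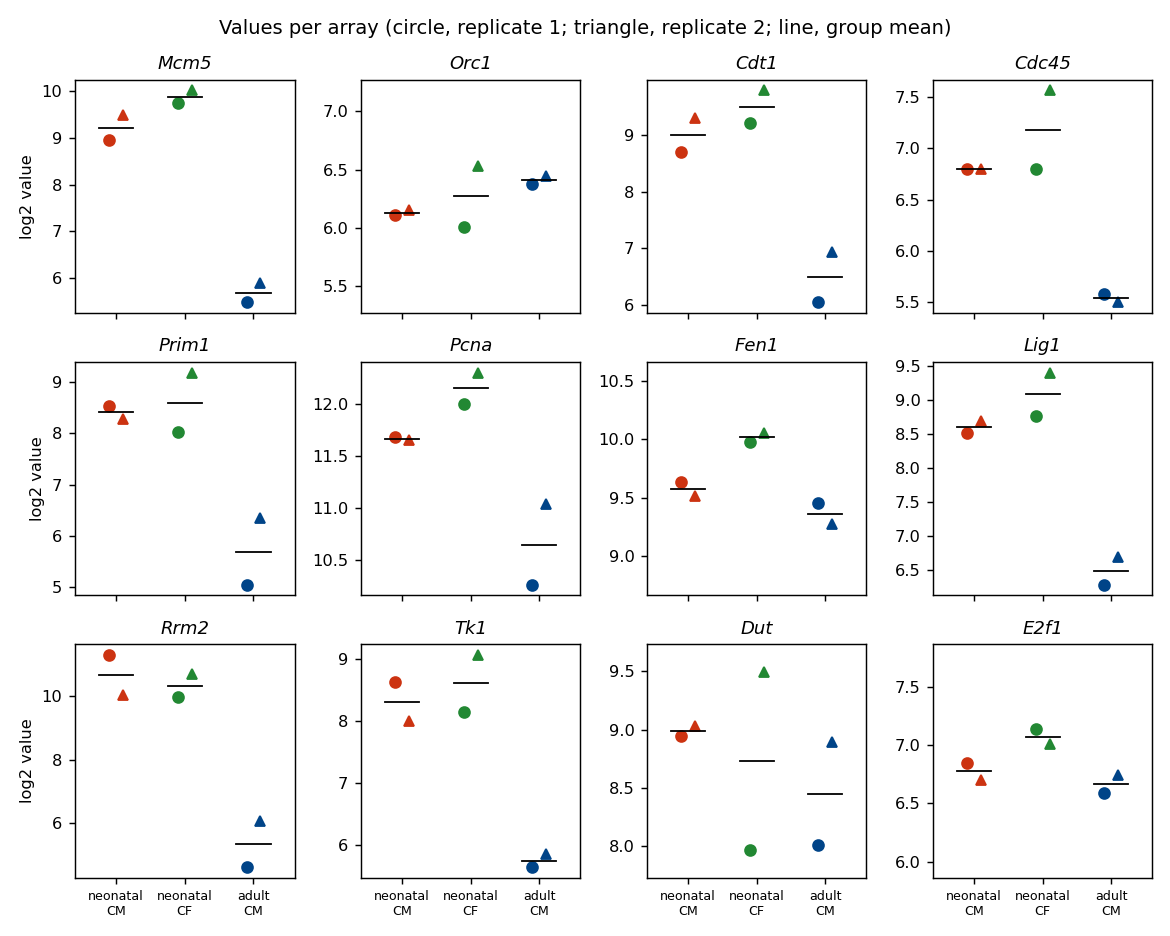
Log2 value on each array (y axis, scaled per gene) for 12 genes, by group (x axis), with circles for replicate 1, triangles for replicate 2 and lines for group means. Adult points of Mcm5, Cdt1, Prim1, Lig1, Rrm2 and Tk1 lie well below all others, those of Orc1, Dut and E2f1 overlap a neonatal group, and Cdc45 shows the tied values.

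The polymerase and fork genes ranged from Prim1 to Fen1 in size of difference. All 13 had lower adult than neonatal cardiomyocyte means, with a median of −1.02, and Lig1 alone was called. Lig1, the ligase that joins Okazaki fragments, measured 8.51 and 8.69 in neonatal cardiomyocytes, 8.77 and 9.40 in fibroblasts, and 6.29 and 6.69 in adult cells, a fall of 4.32-fold (−2.11 ± 0.29 SE, adjusted p = 0.0396). The catalytic primase subunit Prim1 had the largest difference, −2.72 ± 0.57 (SE, adjusted p = 0.0823), from 8.54 and 8.29 against 5.05 and 6.34; its fibroblast arrays read 8.02 and 9.18. The adult arrays differed from each other by more than 1 log2 unit, though both lay below every neonatal array. Its partner Prim2 differed by −1.01 (95% interval −2.26 to 0.23).

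Polymerase subunits differed by unequal amounts. Pole, the catalytic subunit of the leading-strand polymerase, measured 7.43 and 7.49 in neonatal cardiomyocytes and 5.94 and 6.04 in adult ones (−1.47, adjusted p = 0.0959). Pola1, the catalytic subunit of the priming polymerase, differed by −0.91 (95% interval −1.92 to 0.11), and Pold1, that of the lagging-strand polymerase, by −0.51 (−1.08 to 0.05). Pola2, the regulatory subunit that works with Pola1, stayed between 7.35 and 7.73 on all 6 arrays and differed by −0.22 (95% interval −0.67 to 0.22). The clamp loader subunits Rfc5, Rfc3 and Rfc4 differed by −2.04, −1.72 and −1.29, with adult arrays below all neonatal ones in each. Pcna, the clamp they load, measured 11.68 and 11.65 in neonatal cardiomyocytes, 12.00 and 12.30 in fibroblasts, and 10.26 and 11.04 in adult cells. Its adult arrays were the lowest of the 6, yet the difference was 2.02-fold and not called (−1.02 ± 0.30 SE, adjusted p = 0.144); against fibroblasts Pcna fell by 1.50 on the log2 scale (adjusted p = 0.0281). Rpa2 differed by −0.54 (95% interval −1.53 to 0.46), with adult arrays at 7.26 and 8.20 that overlapped the neonatal ones.

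Fen1, the nuclease that trims Okazaki fragments, depended on the probe set. The one used, an _x_at set whose probes can match other transcripts, measured 9.64 and 9.52 in neonatal cardiomyocytes, 9.98 and 10.05 in fibroblasts, and 9.45 and 9.27 in adult cells, a difference of −0.22 with a 95% interval from −0.65 to 0.22. The other Fen1 probe set differed by −1.87 between the same groups and by −2.53 against fibroblasts. Of the genes called lower, Rrm2, Mcm5 and Mcm3 also rested on _x_at sets and Mcm7 on an _s_at set. With both kinds left out, 9 of the 36 genes were called lower between the cardiomyocyte groups, against 179 of 17903 over all genes. In 12 of the 36 genes, Fen1 not among them, probe sets disagreed in sign between adult and neonatal cardiomyocytes. Some sets with higher adult means read low on average: Cdt1 3.52, Rrm1 3.79 and Pola1 3.78, with differences of 0.27, 0.09 and 0.03. Others were brighter, such as that of Cdc45 at 5.87 with a difference of 0.53. Chaf1b, a subunit of the factor that deposits histones behind the fork, measured 7.21 and 7.08 in neonatal cardiomyocytes, 7.25 and 7.66 in fibroblasts, and 6.44 and 5.77 in adult cells (−1.04 ± 0.29 SE, adjusted p = 0.133).

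Nucleotide supply held the largest fall of all members, that of Rrm2. Of 5 genes 3 were called lower, with a median of −2.56. Rrm2, the small subunit of ribonucleotide reductase that is made in S phase, measured 11.30 and 10.05 in neonatal cardiomyocytes, 9.99 and 10.68 in fibroblasts, and 4.62 and 6.09 in adult cells. This was a 39.8-fold fall from neonatal cardiomyocytes (−5.32 ± 0.65 SE, adjusted p = 0.0332) and a 31.5-fold one from fibroblasts (adjusted p = 0.0118). The replicates of each group differed, by 1.25 or more in cardiomyocytes, but the lowest neonatal array stood well above the higher adult one, and all 3 Rrm2 probe sets had lower adult means. Rrm1, the large subunit, measured 10.26 and 10.12, 10.58 and 10.78, and 7.21 and 7.95, and fell 6.09-fold (adjusted p = 0.0278). Tk1, the thymidine kinase of S phase, measured 8.63 and 8.00, 8.16 and 9.07, and 5.65 and 5.85, and fell 5.91-fold (adjusted p = 0.0473).

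Thymidylate synthase and dUTPase were not called between the cardiomyocyte groups. Tyms, which makes thymidylate, read low throughout, at 4.60 and 5.22 in neonatal cardiomyocytes, 5.51 and 6.27 in fibroblasts, and 4.09 and 4.23 in adult cells; it differed by −0.75 (95% interval −1.63 to 0.13) and fell 3.33-fold against fibroblasts (adjusted p = 0.0275). A probe set shared with a Tyms pseudogene was not used, and of the 4 Tyms probe sets 2 had lower adult means. Dut, which removes dUTP and yields the precursor of thymidylate, measured 8.94 and 9.03, 7.97 and 9.49, and 8.01 and 8.89, with a difference of −0.54 (95% interval −1.98 to 0.91). Its fibroblast arrays spanned the values of both other groups.

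The G1/S regulators were split. Ccne2, a cyclin E that drives entry into S phase, measured 7.14 and 7.85 in neonatal cardiomyocytes, 7.59 and 8.36 in fibroblasts, and 5.65 and 5.56 in adult cells, −1.88 ± 0.36 (SE, adjusted p = 0.0705) between the cardiomyocyte groups and a 5.15-fold fall against fibroblasts (adjusted p = 0.0154). Its paralog Ccne1 read 7.26 and 7.32, 7.97 and 8.34, and 7.56 and 6.27; one adult array lay above and the other below the neonatal cardiomyocytes, and the difference of −0.38 had a 95% interval from −1.51 to 0.76. E2f1, the activator named for this gene programme, measured 6.85 and 6.70, 7.13 and 7.01, and 6.59 and 6.74. Its values overlapped between the cardiomyocyte groups and differed by −0.11 (95% interval −0.55 to 0.33); renewed quantile normalization turned it to 0.025, and the other E2f1 probe sets differed by −0.65 and 0.26.

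By role, the median difference of adult from neonatal cardiomyocytes was −2.56 for 5 nucleotide supply genes, −1.84 for 10 licensing genes, −1.37 for 4 helicase activation genes, −1.02 for 13 polymerase and fork genes and −0.38 for 3 G1/S regulators. Against fibroblasts it was −2.86, −2.71, −1.81, −1.50 and −1.24, respectively. Within each role the genes spread widely, from −5.32 to −0.54 for nucleotide supply and from −2.72 to −0.22 for the fork, and the difference between roles was not tested.

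**Figure D5:**
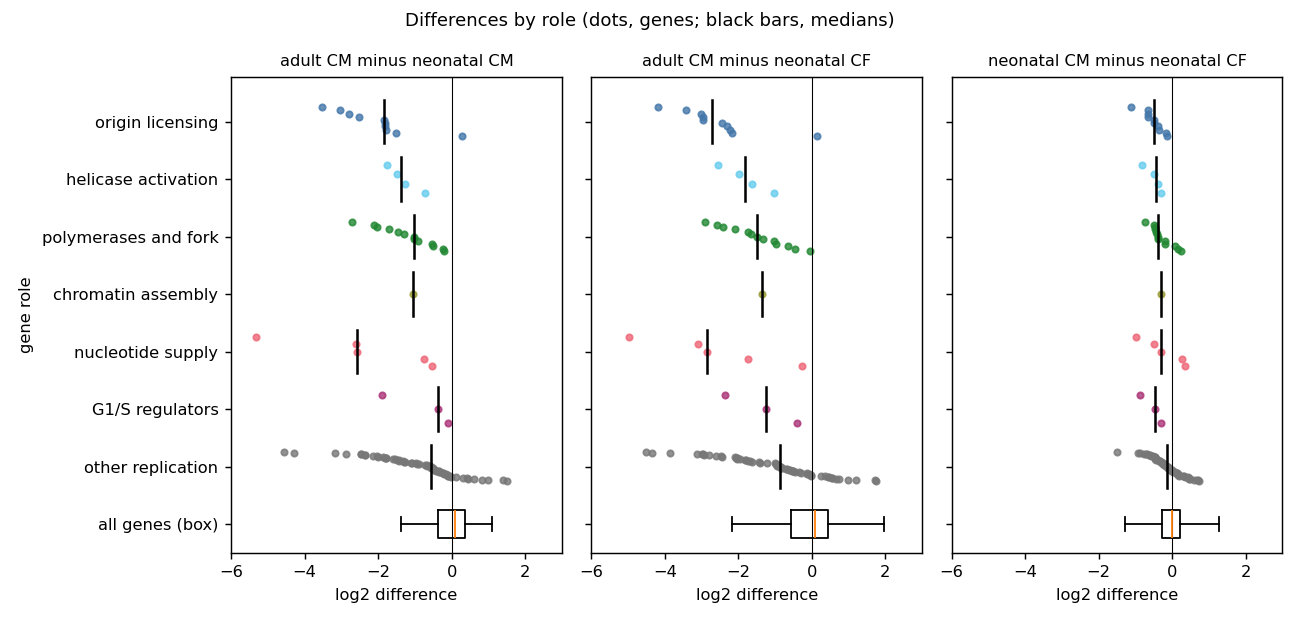
Log2 differences (x axis) of the genes of each role in the 3 comparisons (panels); dots are genes (grey, 65 other replication genes), black bars medians, and the box gives the quartiles of all 18193 genes with whiskers from the 5th to the 95th percentile. The median bars of nucleotide supply lie furthest left in both adult panels, and the dots gather near zero in the neonatal panel.

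Differences between the neonatal cell types were smaller. Of the 36 genes 0 differed between neonatal cardiomyocytes and fibroblasts in limma, against 0.676% of all genes higher and 0.143% lower in cardiomyocytes, and 2 were lower at unadjusted p under 0.05, against 7.31% of all genes lower and 8.95% higher. These were Fen1 (−0.44, adjusted p = 0.298) and Tyms (−0.99, adjusted p = 0.256). The median difference was −0.40, and 31 of 36 means were lower in cardiomyocytes; in 14 genes both cardiomyocyte arrays lay below both fibroblast arrays (23.2% of all genes), and in 0 above (22.3%). The size of the difference moved with fibroblast replicate 2, which exceeded replicate 1 in 34 of the 36 genes by a median of 0.56 (over all genes, 53.8% and 0.03). Without that array the median was −0.17, and without fibroblast replicate 1 it was −0.70. Without fibroblast replicate 2, 23 means were lower, Cdc45 was equal, and Orc1, Mcm7, Pola1, Prim1, Pole, Rfc5 and Tk1 turned to higher means in cardiomyocytes, by 0.02 to 0.40. The same array had the higher cardiomyocyte markers and the lower leukocyte markers of its pair, and the part of these cells in its replication values was not tested. The intervals leave room for differences: Pcna differed by −0.48 (95% interval −1.25 to 0.28), Cdt1 by −0.50 (−1.54 to 0.55), E2f1 by −0.30 (−0.74 to 0.14) and Rrm2 by 0.34 ± 0.65 (SE).

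Another 65 measured genes of replication were taken from a fixed list. Between the cardiomyocyte groups 9 of them fell (13.8%) and 0 rose, against 1.22% of all genes lower and 1.08% higher. Means were lower in 56, and the median was −0.56, against 0.09 over all genes. With the replicate block 14 fell, against 373 of 18193 over all genes, and with groups by title 2, against 74. The count was 0 without the arrays of opposed title, without neonatal cardiomyocyte replicate 2 or without either adult array, and 1 without neonatal cardiomyocyte replicate 1. Ccna2, the cyclin A of S phase and G2, measured 10.28 and 9.12 in neonatal cardiomyocytes, 9.21 and 9.80 in fibroblasts, and 5.17 and 5.12 in adult cells (23.5-fold, adjusted p = 0.0234). Dbf4, the activating subunit of the Cdc7 kinase that fires origins, measured 9.10 and 8.74, 8.78 and 9.52, and 4.23 and 5.02 (19.6-fold, adjusted p = 0.0217). In both, the adult arrays lay more than 3 log2 units below every neonatal one. The deoxycytidine kinase Dck fell 9.09-fold and the hemimethylated DNA reader Uhrf1 7.38-fold. The checkpoint adaptor Clspn, the nuclease and helicase Dna2, the histone chaperone Asf1b, the initiation factor Topbp1 and the E2F family repressor E2f8 fell by 5.57-, 5.16-, 4.01-, 3.64- and 3.42-fold. Dbf4 and Topbp1 each had 2 probe sets, 1 with a lower and 1 with a higher adult than neonatal cardiomyocyte mean. All probe sets of the other called genes of this list had lower adult means.

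The remaining origin recognition subunits had small differences: Orc2, Orc3, Orc4 and Orc5 differed by −0.56, −0.01, −0.47 and −0.32, and 0 of them was called in limma (0 at unadjusted p under 0.05). Among E2F genes, E2f3 differed by −1.27 (adjusted p = 0.0595), E2f7 by −1.82 (adjusted p = 0.254) and E2f2 by −0.24, while E2f4, E2f5 and E2f6 had higher adult means by 0.42, 0.60 and 0.98. The repressor E2f6 measured 9.50 and 9.30 in neonatal cardiomyocytes, 8.59 and 8.72 in fibroblasts, and 10.78 and 9.98 in adult cells, and the E2F partner Tfdp2 9.08 and 8.57, 8.38 and 8.59, and 10.30 and 10.17. Both adult arrays were above all neonatal ones in each, and against fibroblasts both rose, by 1.73 (adjusted p = 0.0202) and 1.75 (adjusted p = 0.0123). They were the 2 genes of the list that rose in that comparison, where 24 fell (4 by title, 10 without the arrays of opposed title, 15 and 14 without fibroblast replicate 1 or 2, 0 and 5 without adult replicate 1 or 2). The count that rose was 0 by title, without the arrays of opposed title, without fibroblast replicate 1 or without adult replicate 1, 1 without fibroblast replicate 2 or adult replicate 2, and 4 with the mean of probe sets. Beside these counts of 24 and 2 among 65 genes, the shares over all genes against fibroblasts were 11.0% lower and 10.1% higher. Rrm2b, the reductase subunit that quiescent cells use in place of Rrm2, measured 8.50 and 8.41, 8.38 and 7.96, and 9.05 and 8.74. Its adult arrays were the highest, with a difference of 0.44 from neonatal cardiomyocytes (adjusted p = 0.309), in the opposite direction to Rrm2.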

How the data were processed

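The deposited table holds log2 values for 45101 probe sets on 6 one-colour arrays; the authors made them with RMA, per the submitters' processing notes, a method that corrects background, quantile-normalizes and summarises probes. Its version, and whether all arrays were run together, were not given in the sources used here. RMA gives no detection call, values range from 2.43 to 14.60, and the number of arrays limits the precision. By the platform annotation 34945 probe sets had 1 gene; 932 named to several, 9160 unnamed here and 64 controls were left out, and the probe set with the highest mean stood for each of 18193 genes.

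A model of 3 group means was fitted to all 6 arrays (limma 3.58.1 under R 4.3.3; lmFit and eBayes; 3 residual and 2.18 prior degrees of freedom). Tests were two-sided, adjusted by Benjamini-Hochberg over all genes at 0.05, and the script was tested on simulated data. Rose and fell mark calls; a fold is 2 to the power of the log2 difference. Across genes, replicate 2 minus replicate 1 correlated at 0.183 to 0.268 between groups, so the replicate number of the titles was also fitted as a block.

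The genes and lists were chosen with earlier results of these data known. Named were all measured members; arrays are given in full for the largest and smallest difference per role, for E2f1, Pcna, Rrm2 and Cdt1, for members called between the cardiomyocyte groups, and for others chosen after their values were seen. Alternatives were the titles' groups, leaving out arrays, other probe set rules, a minimum mean of 6, renewed quantile normalization, trended variance and fits of the compared groups alone. Promoters are RefSeq's, GRCm38.p6, matched by symbol.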

Additional observations from a re-analysis of the deposited data

How the results depend on the processing

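Counts of calls depended on single arrays and on the grouping, while directions mostly did not. In the adult comparisons, calls over all genes mostly dropped too where arrays were left out or titles set the groups. Of 36 genes, 8 were called lower in adult than in neonatal cardiomyocytes; leaving out 1 array gave 0 to 1, groups by title 3, leaving out both arrays with opposed titles 0, and fitting only the 2 groups compared 1. Against fibroblasts the 26 calls became 0 to 24 without 1 array, 4 by title and 4 without the opposed arrays. For the other 65 genes the 9 calls became 0 to 7, 2 and 0, and the 24 against fibroblasts 0 to 23, 4 and 10. With the replicate number as a block the first counts were 13 and 14 in place of 8 and 9, and the block moved no other count by over 1.5 times. Lower calls over all genes rose with the block too, from 222 to 373 between the cardiomyocyte groups. Between neonatal cell types 0 genes of either list were called under every setting run. In that comparison 0 of all 18193 genes were called by title, with the block or with only the 2 groups compared. The lists' count of 0 was therefore fixed in these fits, and likewise in most fits without arrays. Probe set rules, the minimum mean, renewed normalization and trended variance kept each count of lower calls within 1.5 times. The 2 other genes that rose against fibroblasts became 0 to 2 without 1 array, 0 by title and without the opposed arrays, 3 with the block and 4 with the mean of probe sets. Where an array leaves, its group's lone array is assumed to vary like the others.

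Single differences were recomputed for the 36 genes in the adult comparisons, for 16 other genes between cardiomyocyte groups, and for Rrm2, Pcna, Cdt1 and E2f1 between neonatal types. Those that reversed were small and not called. With 1 array left out, the cardiomyocyte difference ranged from −1.02 to 0.27 for Ccne1, from −0.028 to 0.87 for E2f4 and from −0.14 to 1.35 for E2f5. Against fibroblasts it ranged from −0.12 to 0.40 for Orc1, from −0.13 to 0.000717 for Pola2, from −0.92 to 0.021 for Rpa2 and from −1.04 to 0.48 for Dut, which was also 0.16 without adult replicate 1. Between neonatal types, 7 of the 36 genes turned without fibroblast replicate 2, 3 without fibroblast replicate 1, and 2 and 1 without neonatal cardiomyocyte replicate 1 or 2; the median of the other 65 genes was −0.14, and 0.024 without fibroblast replicate 2. Rrm2 ranged from −0.29 to 0.96 between the neonatal types and was −0.01 without fibroblast replicate 1. The mean of probe sets turned Orc1 (−0.14) and E2f5 (−0.35) between cardiomyocyte groups and Orc1 (−0.50) and Dut (0.20) against fibroblasts. Renewed normalization turned E2f1 (0.025) and, against fibroblasts, Pola2 (0.16). By title, Rrm2 was −0.97 and Cdt1 0.015 between the neonatal types; without the opposed arrays, Rrm2 was −0.64 there and Orc1 −0.12 against fibroblasts. The cause was not tested.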
